A study of Mus musculus with 2 samples.

Results

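Neutrophil secondary granule genes were followed here as 8 named genes, Camp, Ngp, Ltf, Lcn2, Chil3, Wfdc21, Cd177 and Fcnb, out of 31053 genes counted in immune cells of the mouse cochlea. They were chosen by name, as a list of genes known from granules that neutrophils fill while they mature. Earlier results of these data were known when the list was chosen. All 8 were detected, with between 2091 unique molecular identifiers (UMIs, 1 per captured transcript) for Fcnb and 155370 for Camp in the cells kept. Cells carrying the leukocyte surface protein CD45 came from mice 3, 7 and 14 days after noise exposure and from sham mice without it, which the labels also call untreated. The labels give no strain, sex or age, and no allele or agent beyond the noise. Each condition was 1 pool of the cochleae of 6 mice, marked with its own hashtag antibody, and the 4 pools were captured as 1 droplet suspension. With 1 pool per condition there are no replicates, so no p-value is given, and every interval is a 95% interval of counting error alone.

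Neutrophils build their granules in sequence while they mature: primary granules in progenitors, secondary (specific) granules next, and tertiary granules after them. The transcripts of a granule class are made during that window and then cease, while the proteins stay in the cell until it meets a microbe or an inflamed tissue. In mice the transcription factor Cebpe is required for the secondary granule set. Among the 8 genes, Camp encodes the precursor of the antimicrobial peptide CRAMP, and Ngp encodes a granule protein related to cystatins. Ltf encodes lactoferrin, which withholds iron, and Lcn2 encodes a lipocalin that binds the iron carriers of bacteria. Chil3 encodes the chitinase-like protein Ym1, and Wfdc21 a small secreted protein with a WAP domain. Cd177 encodes a surface protein that associates with the integrin of Itgam and Itgb2, and Fcnb encodes ficolin B, a sugar-binding lectin of the complement system.

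Of 1556 barcodes, 1359 carried 1 hashtag by the rule of at least 10 UMIs and 80% of the hashtag UMIs, and 1285 of these passed the cell filter. The sham, day 3, day 7 and day 14 pools held 341, 551, 216 and 177 cells, with 3543259, 6681492, 2529045 and 1873067 gene UMIs. Cells were assigned to lineages by marker genes that exclude the 8 genes described here, which gave 505 neutrophil-gated cells and 34 cells gated as myeloid progenitors. The neutrophil markers summed to 391893 UMIs per 1000000 gene UMIs (CPM) in the neutrophil-gated cells, against 1196 CPM in 382 cells of the B lineage. These markers set the gate, so that contrast is no separate check of it. Markers of the cochlea's own non-immune cells summed to 6.84 CPM in the neutrophil-gated cells, where 4 of 6 had any UMI. Neutrophil-gated cells were split into cycling, early, intermediate and late cells by cell cycle genes and by genes of late neutrophils (Csf3r, Cxcr2, Il1r2, Msrb1 and Mxd1, then Il1b and Ccrl2). The 5 stages from progenitor to late held 34, 29, 123, 150 and 203 cells, with median depths of 36586, 31210, 15771, 10127 and 4357 UMIs per cell.

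The 3 genes Camp, Ngp and Ltf lie within 1195390 bases of chromosome 9 (GRCm38). Camp spans chr9:109847379-109849617 on the minus strand with 4 exons, Ngp chr9:110419747-110423012 on the plus strand with 4 exons, and Ltf chr9:111019271-111042767 on the plus strand with 17 exons. Fcnb (chr2:28076378-28084885) and Lcn2 (chr2:32384633-32388252) are both on the minus strand of chromosome 2. Chil3 lies at chr3:106147554-106167564, Cd177 at chr7:24743983-24760311 and Wfdc21 at chr11:83746940-83752642. RefSeq promoter sequences (GRCm38.p6) matched 7 of the 8 genes. The motif TTGCNNAA, a core form of the site bound by the C/EBP factors, was searched on both strands (TTNNGCAA on the other) in the 250 bases before each start. It occurred in 4 of the 7 promoters (Ngp, Ltf, Lcn2 and Fcnb) and in 9.56% of 32851 mouse promoters of the same length. The searched Lcn2 stretch (chr2:32387740-32387989) lies wholly inside the Lcn2 gene span given above, so its match is not upstream of that span. Of the 250 Camp bases, 161 lie inside the Camp gene span. The PU.1 motif GAGGAAGT (ACTTCCTC on the other strand) occurred in 0 of the 7 and in 2.44% of all. A match describes letters and is no evidence of binding. The stretches below show those matches in capitals for 3 of the genes, since the factor that leads the genes most like this set in level is Cebpe; each ends just before the GENCODE gene start, which leaves out the last 61, 21 and 7 of the 250 bases and with them 1 of the 2 matches of Ngp, and is written 5′ to 3′ along the gene's strand.
Ngp (chr9:110419558-110419746, plus strand): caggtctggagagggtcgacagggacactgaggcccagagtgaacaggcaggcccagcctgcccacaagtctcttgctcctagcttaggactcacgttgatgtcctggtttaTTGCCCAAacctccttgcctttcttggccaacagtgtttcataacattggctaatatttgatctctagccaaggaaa
Ltf (chr9:111019042-111019270, plus strand): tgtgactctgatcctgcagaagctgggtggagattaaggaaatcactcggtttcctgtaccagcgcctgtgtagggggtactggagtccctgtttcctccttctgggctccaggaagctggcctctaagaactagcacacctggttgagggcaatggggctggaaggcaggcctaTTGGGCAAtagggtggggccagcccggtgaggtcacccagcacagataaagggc
Fcnb (chr2:28084886-28085128, minus strand): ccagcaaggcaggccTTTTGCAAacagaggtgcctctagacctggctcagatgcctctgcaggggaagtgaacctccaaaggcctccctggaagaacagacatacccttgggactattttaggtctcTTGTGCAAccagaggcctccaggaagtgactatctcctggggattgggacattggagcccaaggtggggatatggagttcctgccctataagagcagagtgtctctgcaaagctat

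Transcripts of the 8 genes were found almost wholly in the neutrophil line. Neutrophil-gated and progenitor-gated cells held between 95.6% (Cd177) and 97.8% (Fcnb) of each gene's UMIs, although they were 539 of the 1285 cells. Outside them, 15654 UMIs of the 8 genes were in the 20 cells with markers of incompatible lineages, and 687 in B lineage cells. Summed over the 8 genes, the level was 75209 CPM in neutrophil-gated cells, 7.52% of all their transcripts counted, and 211 CPM in B lineage cells, a ratio of 357 (331 to 385). Per cell the sum was a median of 118 UMIs and a mean of 784 in neutrophil-gated cells, against a mean of 1.80 in B lineage cells. T cells stood at 211 CPM, NK cells at 214 CPM and macrophages at 144 CPM. In these low levels Camp made up 37.3% of the 8 genes' UMIs in B lineage cells, 36.5% in T cells and 36.1% in NK cells, against 34.3% in neutrophil-gated cells. Other shares differed in B lineage cells, where Wfdc21 made up 15.0% (12.4 to 17.9) and Ltf 5.09% (3.57 to 7.01), against 6.98% and 7.95% in neutrophil-gated cells. Set against the neutrophil transcripts S100a8 and S100a9, there were 7.36, 6.35 and 6.70 Camp UMIs per 100 of theirs in B lineage, T and NK cells, against 7.18 in neutrophil-gated cells, while Wfdc21 had 2.96 (2.41 to 3.60) in B lineage cells, against 1.46 in neutrophil-gated cells. B lineage cells serve as the background level from here on, and how much of their signal is free RNA was not tested.

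**Figure D1:**
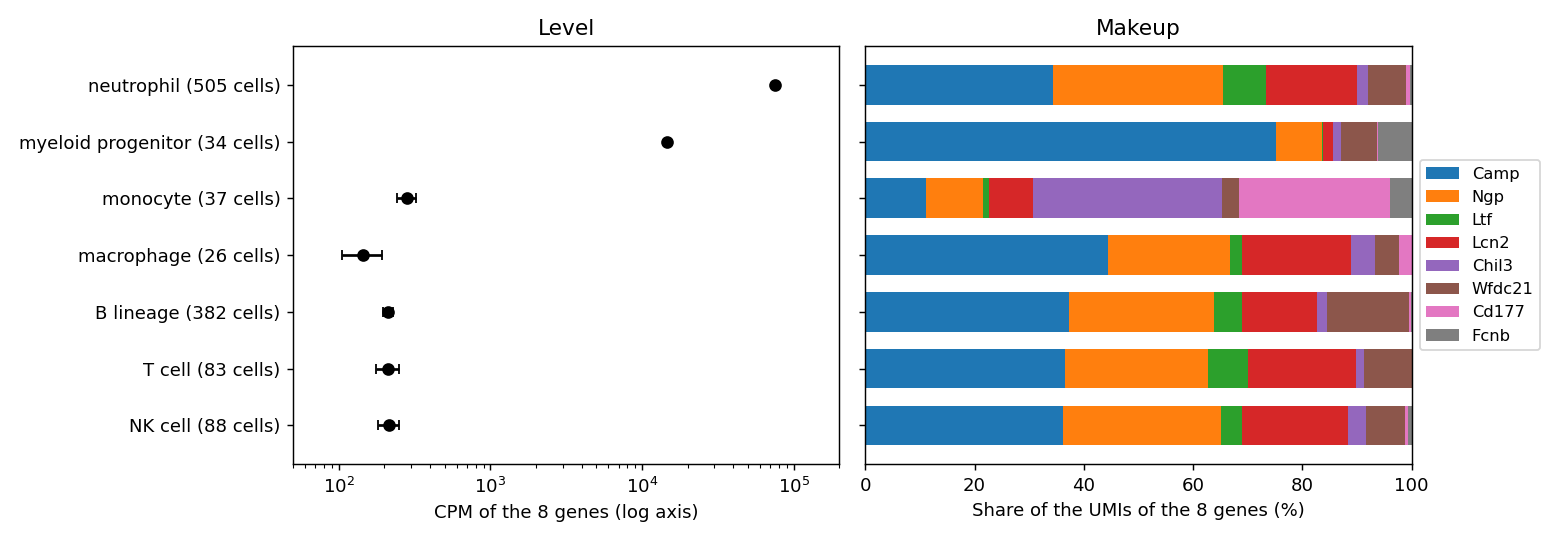
Level and makeup of the 8 genes by lineage. The left panel plots their summed CPM on a log axis with 95% counting intervals, and the right panel the share of each gene among them in percent; neutrophil-gated cells stand at 75209 CPM, and monocyte-gated cells differ from the other lineages by the shares of Chil3 and Cd177.

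Monocyte-gated cells had another composition. In the 37 cells gated by Ccr2, Ly6c2, F13a1, Ms4a6c and Fn1, Chil3 was 34.7% (28.1 to 41.7) and Cd177 27.6% (21.6 to 34.4) of the 8 genes' UMIs, against 1.98% and 0.827% in neutrophil-gated cells. As levels, Chil3 stood at 97.2 CPM and Cd177 at 77.5 CPM in monocytes, against 1491 and 622 CPM in neutrophil-gated cells and 3.99 and 0.613 CPM in B lineage cells. The Chil3 UMIs (69 in all) came from 16 of the 37 cells, 8 of them with at least 3 UMIs, and 29.0% came from 1 cell. The Cd177 UMIs (55 in all) came from 17 cells, 10 of them with at least 3 UMIs. By pool, Chil3 had 11, 17, 6 and 35 UMIs in the 12, 19, 2 and 4 monocytes of the sham, day 3, day 7 and day 14 pools, and Cd177 had 30, 18, 3 and 4. Camp, the leading gene in neutrophils, stood at 31.0 CPM in monocytes (22 UMIs in 37 cells) and 78.5 CPM in B lineage cells (256 UMIs in 382 cells). Median depths were 16946 and 5646 UMIs per cell, so the B lineage CPM is not a like background for monocytes. Of the mouse relatives of Chil3 and Fcnb counted in the same table, Chil4 had 1 UMI and Fcna 18 UMIs in all cells, against 8475 for Chil3 and 2091 for Fcnb.

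Along maturation the 8 genes formed a hump that was highest in cycling and early cells. Their sum was 14671, 116766, 117616, 44071 and 6239 CPM in progenitor, cycling, early, intermediate and late cells, so that 11.8% of all transcripts counted in an early cell population came from these 8 genes. Camp stood at 11020, 48150, 40042, 11347 and 1044 CPM in these 5 stages. Ngp stood at 1237, 34671, 39328, 11740 and 1222 CPM. The iron-binding pair had the same outline, with Ltf at 21.3, 7412, 9520, 4577 and 325 CPM and Lcn2 at 285, 15194, 18607, 10538 and 1809 CPM. Chil3 was highest in cycling cells, at 216, 4236, 1896, 281 and 36.7 CPM. Wfdc21 (965, 5778, 7284, 4883 and 1594 CPM) and Cd177 (20.5, 600, 792, 704 and 209 CPM) were the flattest in their later part. Fcnb was highest in progenitors, at 906, 724 and 147 CPM in progenitor, cycling and early cells, and had 0 UMIs in the 353 intermediate and late cells. The stages hold depths that differ, and UMIs of these 3′ libraries were not divided by transcript length.

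**Figure D2:**
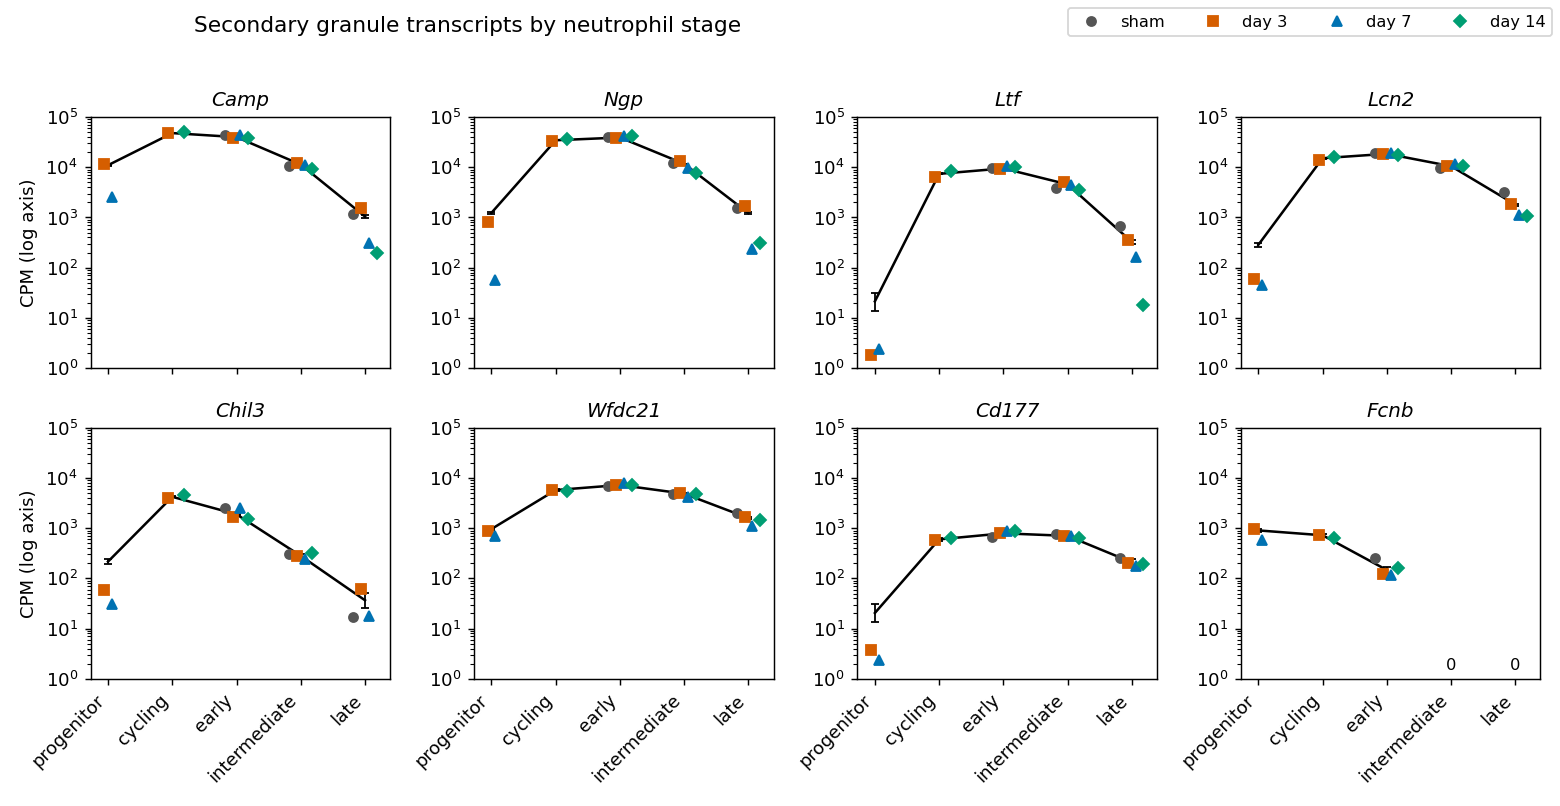
Level of each gene by neutrophil stage. Each panel plots CPM on a log axis; the black line joins the values of all cells of a stage with 95% counting intervals, coloured points are single pools with at least 10 cells in the stage, 0 marks a stage with no UMI, and a pool at 0 has no point. 5 genes are highest in early cells, Camp and Chil3 in cycling cells, and Fcnb in progenitors.

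The difference between late and early cells was unequal among the genes. Late cells against early cells were 51.7-fold lower for Chil3, 38.3-fold for Camp, 32.2-fold for Ngp and 29.3-fold for Ltf. They were 10.3-fold lower for Lcn2, 4.57-fold for Wfdc21 and 3.79-fold for Cd177. The top late cell of a gene held 62.2% of the late UMIs of Chil3, 62.0% of Camp, 61.5% of Ngp and 41.2% of Ltf. For Lcn2, Wfdc21 and Cd177 it held 17.5%, 7.77% and 5.21%. The first 4 folds and the late shares below thus lean on few cells. For Fcnb the late cells were at least 49.5-fold lower, computed against 3 UMIs in late cells. Over 8609 genes with at least 20 UMIs the median log2(CPM + 10) difference, late minus early cells, was 0.13, and on that scale 0.151% of genes were at least 8-fold lower in late cells, as Chil3, Camp, Ngp, Ltf, Lcn2 and Fcnb were. Fcnb was already 4.92-fold lower in early than in cycling cells, Chil3 2.23-fold, and Cd177 stood at 0.889 (0.820 to 0.963) of its early level in intermediate cells. The composition differed accordingly: Camp fell to 16.7% of the 8 genes' UMIs in late cells, against 34.0% in early cells, while Wfdc21 made up 25.5% in late cells, against 6.19% in early cells. In single cells, Camp was the most abundant of the 8 in 27 of 29 cycling cells, Ngp in 66 of 123 early cells, Lcn2 in 60 of 149 intermediate cells with any UMI of the set, and Wfdc21 in 89 of 192 such late cells.

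The 476 non-cycling cells were also binned by the mean log2 score of the 5 late genes. That score also splits early from intermediate cells, so the bins are no separate check of the stage order. With rising score, Camp stood at 49522, 44376, 35449, 18076, 6438, 1461, 145 and 253 CPM in 8 bins of 14 to 84 cells. Ngp, at 43223 CPM in the first bin, stood at 142 CPM in the seventh and 198 CPM in the eighth. Cd177 changed least, at 821, 758, 810, 689, 637, 521, 170 and 123 CPM. Fcnb stood at 599, 179 and 44.2 CPM in the first 3 bins and at 0 in the others. Across the 150 intermediate cells the per-cell levels of Camp and Ngp (Spearman rho 0.91), Camp and Ltf (0.89) and Ngp and Ltf (0.89) went together, whereas Wfdc21 and Cd177 had rho 0.28; these cells share depth and library, and the values are descriptions.

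The progenitor-gated cells, defined by the primary granule genes Elane, Mpo, Prtn3, Ctsg, Ms4a3 and Prss57 with Cd34 and Kit, held the set in a nested way. A cell that also passed the neutrophil gate was kept in this class. At least 10 UMIs of Wfdc21 were found in 20 of the 34 cells, of Camp in 19, of Fcnb in 19, of Ngp in 9, of Chil3 in 6, of Lcn2 in 4, and of Ltf and Cd177 in 1 each, against 0 of 382 B lineage cells for each gene. All 9 cells with Ngp also held Camp, Wfdc21 and Fcnb at that level, all 6 with Chil3 were among the 9 with Ngp, and all 4 with Lcn2 were among the 6 with Chil3. As counted, any Camp UMI was seen in 85.3% of progenitors and 47.4% of B lineage cells, and any Fcnb UMI in 64.7% and 0.262%. Progenitors were deep, so every cell was also thinned to 1500 UMIs, which kept all 34 progenitors and 375 of the 382 B lineage cells. Camp was then seen in 55.9% of the progenitors and 15.5% of B lineage cells, Wfdc21 in 50.0% and 4.80%, Fcnb in 38.2% and 0.267%, Ngp in 23.5% and 10.1%, and Chil3 in 17.6% and 0.800%. Lcn2 was seen in 8.82% of progenitors and 6.93% of B lineage cells. Thinning cuts deep cells more than shallow ones, so these B lineage shares are not a like background for progenitors. As counted, Lcn2 had a mean of 10.2 UMIs per progenitor and a median of 1, with 69.5% of them from 1 cell. Camp levels of single progenitors ranged widely, from 0 to 74178 CPM in 6 sham cells (median 24378), from 0 to 53744 CPM in 15 day 3 cells (median 1546) and from 0 to 17756 CPM in 12 day 7 cells (median 247), while the only day 14 cell stood at 25.9 CPM. S100a8, a marker of the neutrophil gate, stood at 62232.5, 22879, 9560 and 285 CPM in the progenitors of the sham, day 3, day 7 and day 14 pools. The pools thus differed in that marker as well as in Camp. With fewer than 10 sham cells no ratio was formed.

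**Figure D3:**
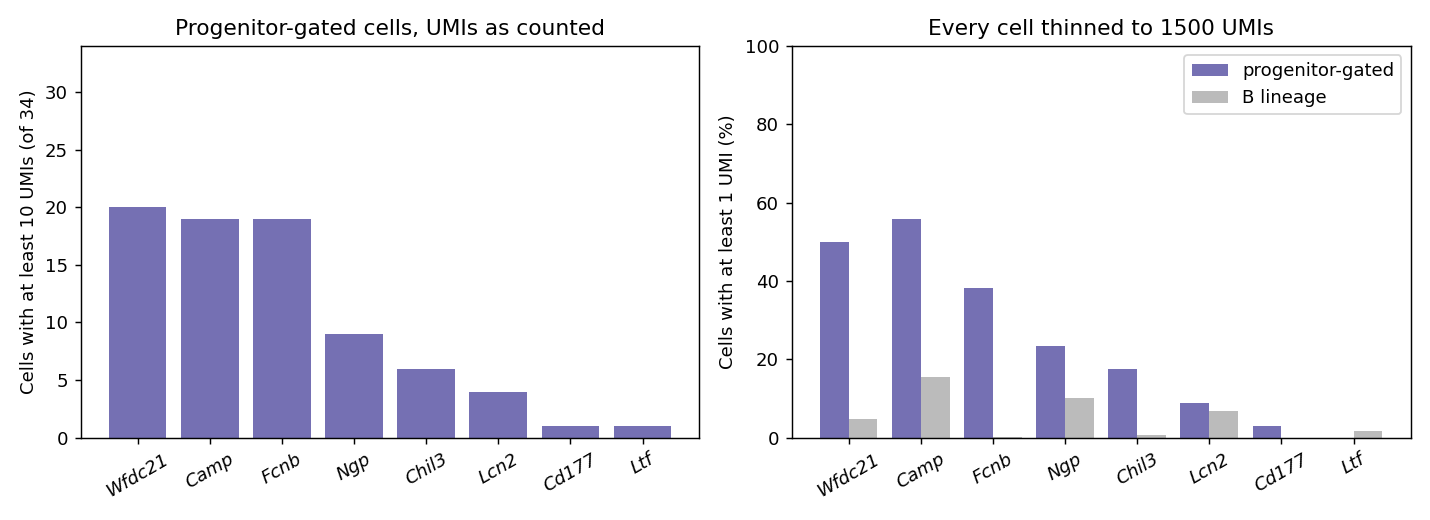
The 8 genes in progenitor-gated cells. The left panel plots the number of the 34 cells with at least 10 UMIs of a gene, from 20 for Wfdc21 to 1 for Ltf. The right panel plots the percentage of cells with any UMI after thinning to 1500 UMIs, beside B lineage cells.

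The same stages placed other granule genes around this set. Of the genes listed here, Pglyrp1, Ly6g, Anxa1, Hp, Mmp8, Mmp9, Mmp25, S100a8 and S100a9 were themselves markers of the neutrophil gate. Their levels in neutrophil-gated cells are thus not independent of that gate. Of 10 primary granule genes, 9 were highest in progenitors, but that list overlaps the genes that gated them, and over 8609 genes 50% were highest there. Of the 19 measured members of a list of 21 further secondary granule genes, 8 were highest in early cells, 5 in intermediate, 3 in late, 2 in cycling cells and 1 in progenitors, whereas 5.29% of all 8609 genes were highest in early cells. Among them, the lysozyme gene Lyz2 stood at 980, 16285, 21284, 15655 and 13725 CPM from progenitor to late cells, and Anxa1, a regulator of inflammation, at 247, 2706, 4724, 2835 and 867 CPM. Pglyrp1, which binds bacterial peptidoglycan, and the surface marker Ly6g stood at 1893 and 712 CPM in late cells, against 2962 and 3075 CPM in early cells. Of 9 tertiary granule genes, 5 were highest in intermediate cells, as were 5.92% of all 8609 genes. The gelatinase gene Mmp9 stood at 2.46, 109, 1008, 1881 and 1516 CPM, and the collagenase gene Mmp8 at 3.28, 73.2, 1687, 3349 and 1588 CPM. The cytosolic pair S100a8 and S100a9, subunits of calprotectin, remained high, with S100a9 at 142711 CPM and S100a8 at 104980 CPM in late cells. Among 13 regulators, Cebpe was at 362, 635, 408, 150 and 34.7 CPM and Cebpb at 251, 240, 309, 1091 and 4357 CPM. Spi1, which encodes PU.1, stood at 295, 346, 462, 671 and 857 CPM.

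Over 14 stage-by-pool groups of neutrophil-gated cells with at least 10 cells, 3649 genes were ranked by the Pearson correlation of their log2 level to the mean of the 8. Among the 10 most alike were Cebpe (r 0.975), the actin-linking gene Vcl (0.974), Arhgdib (0.970), Dstn (0.969), Serpinb1a (0.967), which encodes an inhibitor of neutrophil proteases, the granule protein gene Gca (0.966), Gys1 (0.965), Cops9 (0.963) and the complement gene C3 (0.961). Over all ranked genes the median r was -0.273, and 0.521% exceeded 0.95. The members' own r to their mean ran from 0.791 for Fcnb and 0.899 for Cd177 to 0.996 for Camp. The groups come from 1 library and differ mainly in stage, so these values rank likeness of profile only.

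Whether noise changed the levels was asked first in all neutrophil-gated cells, 84 sham, 265 day 3, 78 day 7 and 78 day 14 cells. A gene was called higher or lower at a ratio of at least 1.5 either way and a minimum of 20 UMIs over the pair of pools. The sham pool is the only reference of all 3 days, which are therefore not independent of each other. Camp stood at 23534, 27371, 17118 and 29087 CPM in the sham, day 3, day 7 and day 14 pools, and Ngp at 22633, 25047, 15892 and 23774 CPM. Both were lowest on day 7, with ratios to sham of 0.727 (0.710 to 0.745) for Camp and 0.702 (0.685 to 0.719) for Ngp, short of a call. Chil3 stood at 1309, 1487, 807 and 2172 CPM, and Fcnb at 184, 179, 31.5 and 278 CPM in the same order. On day 3, 0 of the 8 genes were called, against 16.7% of 6585 genes called higher and 7.11% called lower. On day 7, 2 of 8 were called lower, where 12.8% of 4301 genes were called lower and 12.9% higher: Chil3 at a ratio of 0.617 (0.554 to 0.686) and Fcnb at 0.171 (0.102 to 0.274), which rests on 20 UMIs on day 7 against 149 in sham. On day 14, 2 of 8 were called higher, where 21.5% of 4979 genes were called higher and 8.52% lower, with Chil3 at 1.66 (1.54 to 1.79) and Fcnb at 1.51 (1.22 to 1.86). The other 4 genes, Ltf, Lcn2, Wfdc21 and Cd177, had ratios between 0.840 and 1.10 on all days. The median log2 ratio of the 8 genes was 0.12, -0.36 and 0.09 on days 3, 7 and 14, against 0.05, 0.04 and 0.09 over all genes.

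The mix of stages moved with these ratios. Cycling cells, where Chil3 peaked and Fcnb was 4.92-fold above early cells, were 2, 16, 0 and 11 of the 90, 280, 90 and 79 neutrophil-gated and progenitor-gated cells of the sham, day 3, day 7 and day 14 pools, or 2.22%, 5.71%, 0% and 13.9%; the 0 of 90, taken as at most 3 cells, allows a share of up to 3.33%. Early cells were 18.9%, 28.9%, 13.3% and 16.5%. With each pool's stages weighted as in the sham pool, the day 14 ratios of Chil3 and Fcnb turned to log2 -0.38 and -0.81. The sham cycling level in that weighting came from 2 cells, fewer than the 10 asked for a ratio within a stage. The weighted day 7 median of the 8 genes was log2 0.005. On day 7, which had no cycling cells, that stage was left out of both pools in the weighting. Chil3 then had a ratio of 0.992 and was no longer called, while Fcnb, at 0.455, was still called lower. As Fcnb had no UMIs in intermediate and late cells, its weighted value is the early-cell ratio alone, given again below. In the summed levels, fewer cells of a stage and fewer transcripts per cell cannot be told apart; levels within stages follow.

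Within early cells, 17 sham, 81 day 3, 12 day 7 and 13 day 14 cells, the main members stood close together. The early cells of the pools differed in genes of late neutrophils. Of those measured, 7 of 10, 1 of 6 and 3 of 7 were called higher on days 3, 7 and 14, and 0 lower. Over all genes tested, 18.4%, 14.4% and 16.0% were called higher. Among those late genes, Retnlg stood at 3770 CPM in sham and at 7027, 5609 and 5560 CPM on days 3, 7 and 14. Whether this bears on the ratios below was not tested. Camp was at 43244, 38799, 44106 and 38919 CPM in the sham, day 3, day 7 and day 14 pools, Ngp at 41024, 38240, 41978 and 41344 CPM, and Ltf at 9554, 9249, 10830 and 10069 CPM. Over Camp, Ngp, Ltf, Lcn2, Wfdc21 and Cd177 all 18 ratios to sham lay between 0.897 and 1.32. Under alternative processing Cd177 ran from log2 0.20 to 0.82 on day 7 and from 0.19 to 0.64 on day 14. The upper ends of both ranges pass the 1.5-fold limit. Fcnb stood at 258, 121, 118 and 158 CPM and was called lower on all 3 days, with ratios of 0.469 (0.354 to 0.625), 0.455 (0.264 to 0.751) and 0.612 (0.377 to 0.963). The Fcnb counts were small, 145, 20 and 26 UMIs on days 3, 7 and 14 against 79 in sham, and 35.4% of the sham UMIs came from 1 cell. Chil3 stood at 2531, 1693, 2563 and 1501 CPM, and was called lower on day 14 at 0.593 (0.512 to 0.685), while day 3 stood just inside the limit at 0.669 (0.616 to 0.728). Both genes are uneven inside the early stage, where Fcnb stood at 599, 179 and 44.2 CPM and Chil3 at 2492, 2559 and 1348 CPM over the 3 score bins that make it up. None of these calls was kept when stages came from clusters, where Fcnb had ratios of 1.16, 0.934 and 2.08 on days 3, 7 and 14, and Chil3 1.00 on day 14. The members called lower were thus 1, 1 and 2 of 8 on days 3, 7 and 14, where 10.6%, 13.3% and 12.4% of all genes tested were called lower and 18.4%, 14.4% and 16.0% higher. The same counts among 7 measured members in intermediate cells were 0, 0 and 1 lower, against 9.56%, 11.5% and 11.4% of genes lower and 14.3%, 12.8% and 13.8% higher. The 1 called was Ngp on day 14, at 7620 CPM against 12037 CPM in sham, a ratio of 0.633 (0.595 to 0.673). With the late score threshold that splits early from intermediate cells moved to 1.5 or 2.5, that ratio was 0.752 or 0.788, short of a call.

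**Figure D4:**
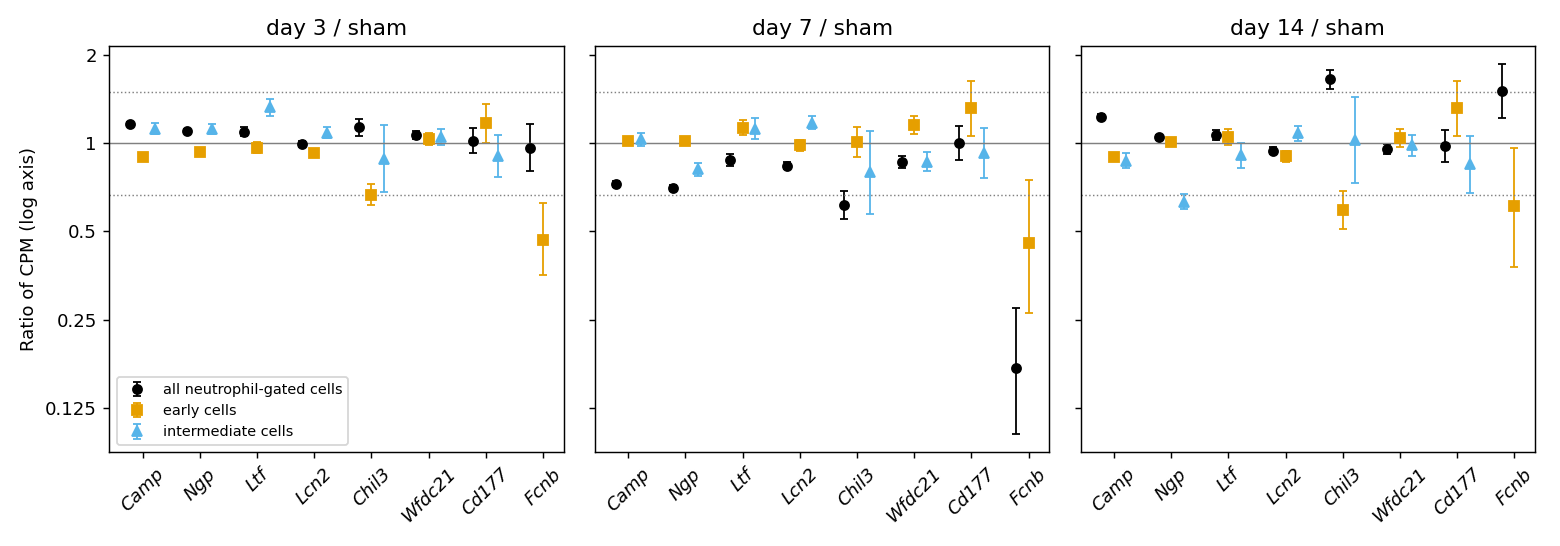
Ratio of CPM to the sham pool for each gene on days 3, 7 and 14, on a log axis with 95% counting intervals. Black points are all neutrophil-gated cells, squares early cells and triangles intermediate cells; dotted lines mark the 1.5-fold limit. Most early-cell ratios lie near 1, and Fcnb on day 7 has the lowest ratio (0.171) in all neutrophil-gated cells.

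Late cells, 35 sham, 99 day 3, 38 day 7 and 31 day 14 cells, differed more in summed levels. Camp stood at 1186, 1515, 309 and 196 CPM in the sham, day 3, day 7 and day 14 pools, Ngp at 1551, 1733, 232 and 312 CPM, and Lcn2 at 3160, 1817, 1105 and 1083 CPM. On day 7, 5 of 6 measured members were called lower, where 15.2% of genes were called lower and 10.8% higher, with Camp at 0.260 (0.188 to 0.354) and Ngp at 0.149 (0.104 to 0.210). On day 14, 4 of 6 were called lower, where 16.7% of genes were called lower and 15.5% higher, with Camp at 0.165 (0.110 to 0.240) and Ltf at 0.0267 (0.00542 to 0.0798), 3 UMIs on day 14 against 119 in sham. On day 3, Ltf (0.512) and Lcn2 (0.575) were called lower and Chil3 higher (31 UMIs on day 3 against 3 in sham), where 13.4% of genes were called lower and 16.2% higher. These sums rested on few cells. Cells with more than 10000 CPM of the 8 genes were 6 of 35 in sham, 3 of 99 on day 3, 2 of 38 on day 7 and 1 of 31 on day 14, and the 6 sham cells held 85.5% of the sham UMIs of the set. On day 3, 1 cell held 85.5% of the Camp UMIs. The median late cell stood at 1148, 1409, 1777 and 1701 CPM in the sham, day 3, day 7 and day 14 pools, so that the typical sham cell was not above the typical cell of the other pools. With stages taken from clusters, the median log2 ratio of the members in late cells was -0.28 on day 7 and 0.26 on day 14, against -1.73 and -1.93 with the marker stages.

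**Figure D5:**
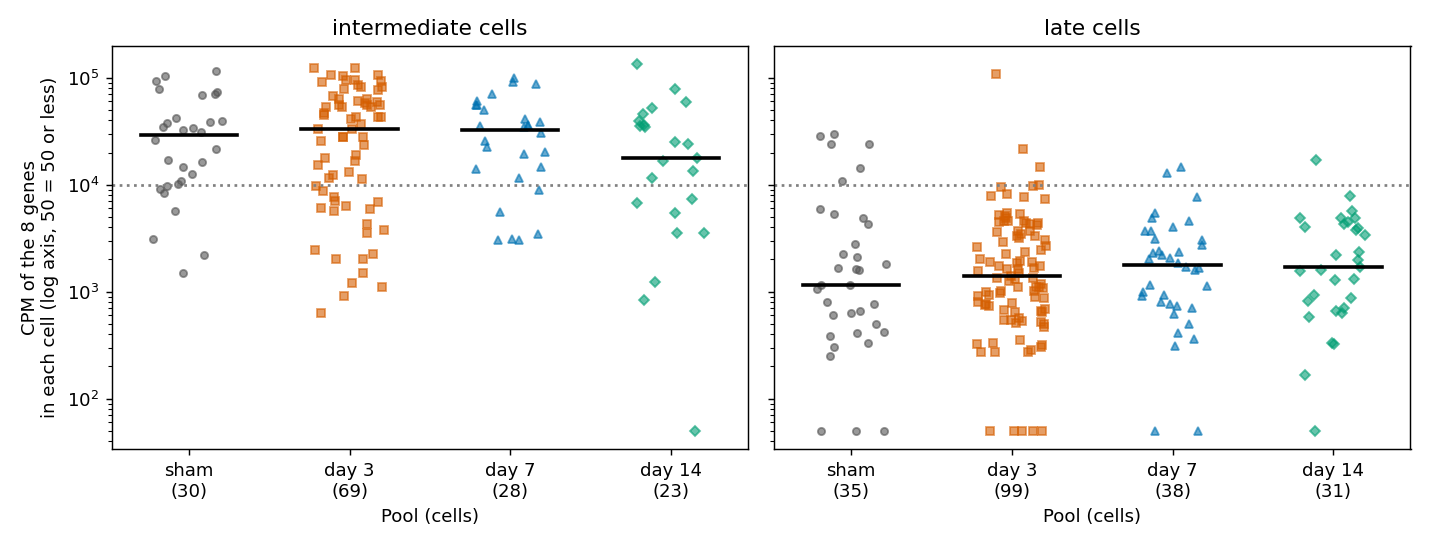
Summed level of the 8 genes in single intermediate and late cells by pool, on a log axis with values of 50 or less drawn at 50. Each point is 1 cell, black bars are medians and the dotted line marks 10000 CPM; 6 of 35 late sham cells lie above it, while the late medians of the 4 pools lie between 1148 and 1777 CPM.

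The related lists in all neutrophil-gated cells were counted by the same rule. Of the further secondary granule genes, 0, 2 and 1 of 19 measured were called higher and 0, 2 and 1 lower on days 3, 7 and 14, where 16.7%, 12.9% and 21.5% of all genes were called higher and 7.11%, 12.8% and 8.52% lower. The counts of the lists that follow stand against the same shares. Olfm4, which encodes the granule protein olfactomedin 4, stood at 1116 CPM on day 7 and 1118 CPM on day 14, against 627 CPM in sham, a ratio of 1.78 on each day with lower bounds of 1.59 and 1.60. Of the tertiary granule genes, 0, 2 and 0 of 9 were called higher and 0, 0 and 1 lower, and Mmp9 stood at 1944 CPM on day 7, against 1261 CPM in sham, a ratio of 1.54 (1.42 to 1.68). Of the primary granule genes measured, 3 of 6, 0 of 4 and 3 of 6 were called higher and 0, 1 and 0 lower, all at low levels in these cells; Plac8 stood at 156 CPM on day 3, against 99.0 CPM in sham. The cytosolic list had 1 of 5 genes called in any comparison, S100a6 on day 7, at 5356 CPM against 3080 CPM in sham. Of the regulators, 3 of 12, 1 of 10 and 0 of 10 were called higher and 0, 1 and 0 lower; Cebpe stood at 186 CPM on day 7, against 308 CPM in sham, a ratio of 0.604 (0.482 to 0.754). Of the receptors and partners of these proteins, 1 of 8, 0 of 6 and 0 of 6 were called, the 1 being Prtn3, a partner of Cd177, with 32 UMIs on day 3 and 0 in sham. Of the late neutrophil genes, 0, 2 and 1 of 10 were called lower and 0 higher, with Cxcl2, a neutrophil-attracting chemokine, at 202 CPM on day 7 against 582 CPM in sham. The genes named here that are outside the top of their list by counts (Olfm4, Cxcl2 and Prtn3) were picked after their values were seen.

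Over all CD45+ cells of a pool, the 8 genes made up 1.98%, 3.82%, 1.45% and 3.67% of the UMIs counted in the sham, day 3, day 7 and day 14 pools. Neutrophil-gated cells were 24.6%, 48.1%, 36.1% and 44.1% of the cells in the same order, and the 8 genes were 7.20%, 7.93%, 5.47% and 7.91% of the UMIs within them. These shares describe sorted cells, and cell numbers per cochlea were not measured.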

How the data were processed

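Live CD45+ cells were captured in 1 droplet suspension with 4 hashtag antibodies, per the labels' protocols, which name kit versions v2 and v3 in different fields. The authors deposited UMI counts per gene and barcode made with Cell Ranger 3.1.0, per the file headers; per the submitters' processing notes reads were mapped to mm10. The rule that called barcodes as cells was not stated. The gene counts of both deposited matrices were identical (0 entries differed over the same 1556 barcodes) and were used once. Barcodes with fewer than 200 genes, over 10% mitochondrial UMIs, under 10 UMIs of the top hashtag (152 barcodes) or under 80% for it (45 barcodes) were left out, which removed doublets between pools but not within them; no doublet caller was run, and 20 cells with markers of incompatible lineages were set apart as mixed, while 84 had no lineage.

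A cell joined a lineage when the mean log2(1 + UMIs per 10000) of its marker list passed a threshold (2 for neutrophils, 1.5 for progenitors). A cell that passed both of these and no other was kept as a progenitor. Cycling cells scored at least 0.75, early cells under 2 on the late genes, and late cells at least 1.5 on Il1b and Ccrl2; within 0.25 of these thresholds lay 13 of 1285, 7 of 505, 61 of 476 and 16 of 353 cells. Thresholds were set on genes outside the 8. UMIs were summed per class and pool and divided by the class total (CPM); ratios carry exact conditional Poisson 95% intervals, and shares Clopper-Pearson intervals, for counting error only. Genes with 0 UMIs on 1 side were set to 3 UMIs there. Class totals ran from 163437 to 2956672 UMIs. The ratio step was tested on simulated data. Members and lists were chosen with earlier results of these data known. Named genes are the 8 members, the genes of each list with most UMIs in neutrophil-gated cells and the 10 most alike in log2(CPM + 10) among genes with at least 100 UMIs, of which 1 is not reported here. Gene coordinates are from GENCODE vM21 (30934 gene IDs matched). Clusters came from scanpy 1.11.5 with igraph 0.11.9, and all else from Python 3.11.15 with pandas 2.3.3, scipy 1.17.1, numpy 2.4.6 and matplotlib 3.10.9.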

Additional observations from a re-analysis of the deposited data

Results flagged for a closer look

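Transcripts of the 8 genes were also present in barcodes that the hashtags put in no pool and that enter no comparison. The 48 barcodes with under 10 UMIs of the top hashtag that passed the cell filter held 257 UMIs of the set, a summed level of 7873 CPM, although 1 of them was neutrophil-gated and their median depth was 611 UMIs. The 44 barcodes whose top hashtag had under 80% stood at 46580 CPM, with 17 neutrophil-gated and 9 mixed barcodes among them. For comparison, the sum was 211 CPM in B lineage cells of the pools, whose median depth was 5646 UMIs. With depths that differ so, that CPM is not a like background for these barcodes. How many of the 257 UMIs came from the 1 neutrophil-gated barcode was not examined. In the first set Camp, Ngp, Ltf and Lcn2 had 45, 60, 64 and 59 UMIs, so Ltf stood at 1960 CPM beside Camp at 1378 CPM, whereas in neutrophil-gated cells Ltf stood at 5983 CPM beside Camp at 25829 CPM.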

How the results depend on the processing

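No paired analysis was possible because each condition was 1 pool and the labels give no replicate numbers; no replicate could be left out either. Of 114 alternatives of the main results, 74 stayed within a counting interval of the main value, 39 moved outside it and 1 reversed. Of 992 for single genes, stage levels and counts, 703 stayed, 279 moved and 10 reversed. For counts the margin was 1.5-fold, and for stage levels it was a fixed percentage. Only a main ratio of at least 1.5-fold could be labelled reversed, so several smaller ones that changed sign below stand among the moved. Values below are median log2 ratios of the members to sham. In all neutrophil-gated cells, day 3 (0.12) was 0.24 with cells counted alike and -0.0596 with stages weighted as in sham. Day 7 (-0.36) was -0.48 with a hashtag rule of 50 UMIs and 95%, and -0.30 without the mitochondrial filter. It was -0.41 without the members, S100a8 and S100a9 in the denominator, and -0.41 without each member's top cell. With stages weighted and cycling cells left out it was 0.00497. Day 14 (0.09) was 0.24 with cells alike and -0.12 with stages weighted, where Chil3 (-0.38) and Fcnb (-0.81) reversed. The weighted values of days 3 and 14 use a sham cycling level from 2 cells. In early cells, day 3 (-0.11) was -0.17 with the other denominator, -0.0671 without top cells, 0.022 with Leiden clusters and -0.0585 at a late score threshold of 2.5. Day 7 (0.03) was 0.17 without the mitochondrial filter and -0.13 at 2.5; day 14 (-0.07) was -0.16 with the other denominator, 0.29 with cells alike, 0.15 with clusters and -0.20 at 2.5. Clusters reversed Fcnb on day 3 (0.21) and day 14 (1.06) and Chil3 on day 14 (0.00219), and cells alike reversed Fcnb on day 14 (1.09). In intermediate cells, clusters gave 0.48 on day 3 (0.12) and -0.57 on day 7 (-0.11), and a threshold of 2.5 gave 0.22 on day 3 and -0.34 on day 14 (-0.14). In late cells, day 3 (-0.25) was -0.44 with cells alike, -1.49 without top cells, -0.50 with clusters, 0.79 at a threshold of 1.5 (Ltf reversed, 0.23) and -1.91 at 2.5. Day 7 (-1.73) was -1.24 with cells alike, -0.28 with clusters and -2.25 at 2.5, and day 14 (-1.93) was -1.31 with cells alike and reversed to 0.26 with clusters; Lcn2 reversed with clusters on days 3, 7 and 14 (0.57, 0.74 and 0.66). The ratio of neutrophil-gated to B lineage cells (357) was 163 after thinning to 1500 UMIs. The ratio of early to late cells (18.9) was 32.1 after thinning, 18.1 under the strict hashtag rule, 47.3 with clusters and 28.7 with the other denominator. With clusters, Chil3 was 19.8% and Cd177 18.4% of the members' UMIs in monocytes, against 34.7% and 27.6%. The late thresholds of 1.5 and 2.5 were chosen after seeing the data, and the cause of these moves was not tested. Late cells had a median depth of 4357 UMIs, which limits low genes there.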
